A study of Mus musculus with 18 samples.

Results

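Macrophage lipid uptake and efflux genes were examined in the open chromatin of liver macrophages (LMs). The 10 genes encode the scavenger receptors CD36, MSR1, MARCO, and SCARB1, the cholesterol efflux transporters ABCA1 and ABCG1, lipoprotein lipase (*Lpl*), and TREM2, GPNMB, and CD9, which mark lipid-associated macrophages. An open region was assigned to a gene when its midpoint lay in the gene body or within 10 kb of either end, in the mm9 genome with the GENCODE vM1 annotation. By this rule 72 of the 69499 deposited open regions belonged to the 10 genes, and no region belonged to more than 1 of them.

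Macrophages take up modified lipoproteins and fatty acids through scavenger receptors, hydrolyze lipoprotein triglycerides with lipoprotein lipase, and return surplus cholesterol to apolipoproteins and HDL through ABCA1 and ABCG1. Sterol-sensing liver X receptors (LXRs) are known to drive both efflux transporters. In fatty liver, macrophages that express *Trem2*, *Gpnmb*, and *Cd9* accumulate around lipid-laden hepatocytes.

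The list was made from 18 fast-ATAC-Seq libraries of LMs from male C57BL/6J mice, a preparation that the study describes as resident Kupffer cells and monocyte-derived macrophages. In this assay, run with 50000 cells per reaction, a transposase cuts DNA where it is not covered by nucleosomes and tags the ends for sequencing. Floxed mice received a virus with the hepatocyte-specific TBG promoter at 8 weeks of age, and all were then fed a high-fat, high-sucrose diet for 4 weeks. Control mice received GFP, *Reverb*-hDKO mice lost *Rev-erb*α and *Rev-erb*β through CRE, and *Reverb/Scap*-hTKO mice lost *Scap* as well. The promoter directs the deletions to hepatocytes and not to LMs, the cells that were isolated for sequencing. There were 3 libraries of each genotype at zeitgeber time (ZT) 10 and 3 at ZT22. The list pools all libraries and holds coordinates without a read count or score. Depth and the spread between replicates are therefore unknown, genotypes and times could not be compared, and no p-value is given. The values below are counts and positions, set beside the same counts over all regions or over the 22367 protein-coding genes on chromosomes 1 to 19, X, and Y.

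The list was checked against genes that mark liver cell types, by whether an open region lay within 1 kb of an annotated start. This was so for 9 of 15 macrophage genes (60%), 14 of 15 hepatocyte genes (93.3%), 13 of 15 genes of sinusoidal endothelial cells (86.7%), 6 of 15 stellate cell genes (40%), and 1 of 15 genes of neurons and muscle (6.67%). Over all protein-coding genes the share was 57.1%, so the check does not set the macrophage genes apart. They had an open start about as often as any gene, and less often than the hepatocyte and sinusoidal endothelial genes. The macrophage genes without one were *Csf1r*, *Vsig4*, *Marco*, *Fcgr1*, *Cd163*, and *Lyz2*, although each had at least 1 open region in the gene or within 10 kb. *Cd36*, *Scarb1*, *Abca1*, and *Lpl* are also used by cells other than macrophages, and the cell type in which a region was open cannot be told apart in a pooled list. Whether hepatocytes or endothelial cells contributed DNA to the LM preparation was not tested.

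All 10 genes had at least 1 open region, as did 74.4% of protein-coding genes. The regions were unevenly shared. *Abca1* had 20, *Scarb1* had 15, and *Abcg1* had 14, so that 49 of the 72 regions (68.1%) belonged to these 3 genes, while the other 7 genes shared 23. *Cd36* had 7 regions, *Msr1* had 5, *Lpl* and *Cd9* had 3 each, *Trem2* and *Gpnmb* had 2 each, and *Marco* had 1. By role, the 4 scavenger receptor genes held 28 regions, the efflux transporter genes 34, *Lpl* 3, and the lipid-associated macrophage genes 7. The map of regions along each gene shows regions along much of *Scarb1* and *Abcg1*, a long stretch without any in the 3′ part of *Abca1*, and few at *Marco*, *Gpnmb*, and *Trem2*.

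**Figure D1:**
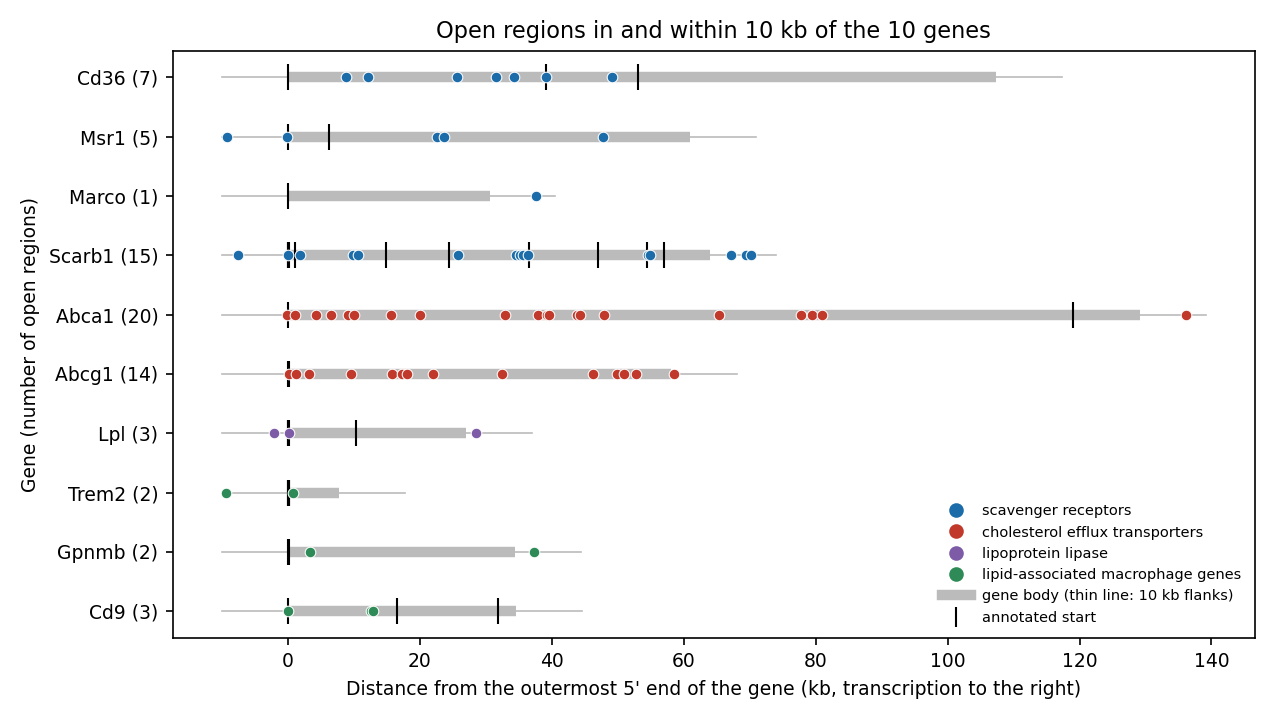
Open regions (points, placed by midpoint and not drawn to width) in and within 10 kb of each gene, against the distance in kb from the gene's outermost 5′ end, with gene bodies as thick lines, flanks as thin lines, and annotated starts as vertical ticks. *Abca1* has 20 points, with 7 of them in intron 5, whereas the only point of *Marco* lies beyond the 3′ end.

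Because long genes can hold more regions, counts were also expressed per 10 kb of the gene and its flanks. The median over the 10 genes was 0.63 regions per 10 kb, against 0.47 over all protein-coding genes, and 8 of the 10 lay above that overall median. This order depended on narrow regions, since with regions of at least 200 bp the median was 0.09 over the 10 genes against 0.10 over all genes. *Abcg1* and *Scarb1* both had 1.79 regions per 10 kb, a density higher than that of 91.3% and 91.1% of protein-coding genes. *Abca1*, with 129.1 kb the longest of the 10 genes, had 1.34 regions per 10 kb and stood above 83.3% of genes by density and above 99.4% by count. The next genes were close to each other, with 0.72 for *Trem2*, 0.64 for *Lpl*, 0.62 for *Msr1*, and 0.55 for both *Cd36* and *Cd9*. *Gpnmb* had 0.37 regions per 10 kb and *Marco* had 0.20, both below the overall median. Since a difference of 1 region moves the density of a short gene such as *Trem2* by a large amount, the order among these lower genes carries little weight.

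**Figure D2:**
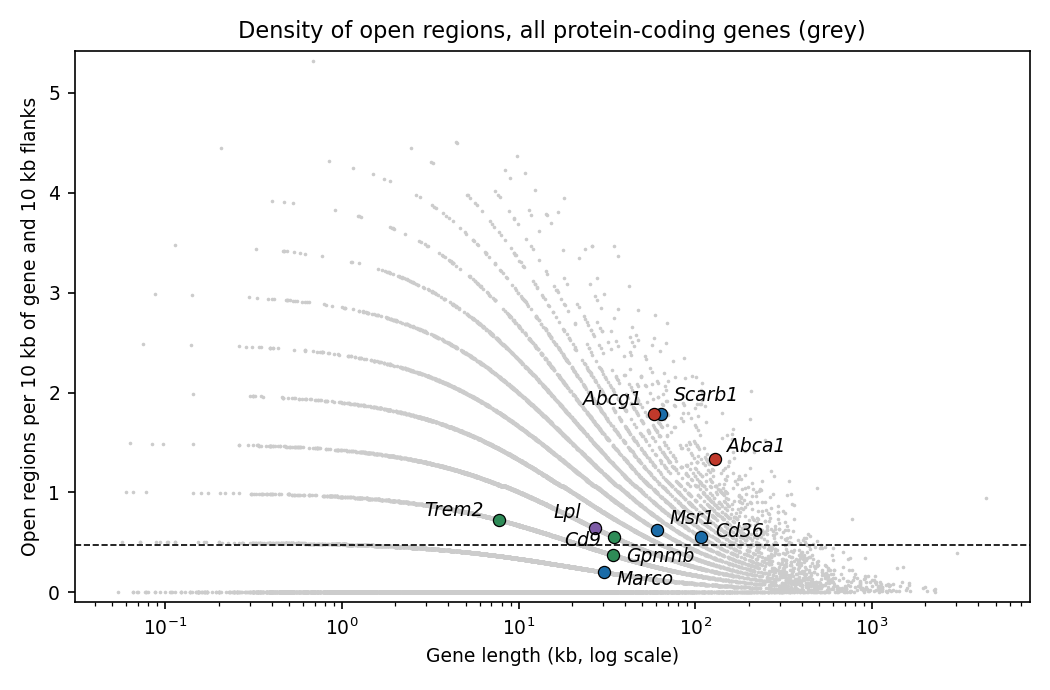
Open regions per 10 kb of gene and flanks against gene length in kb (log scale) for all protein-coding genes (grey) and the 10 genes (colored by role as in the map), with the median of all genes as a dashed line. *Abcg1*, *Scarb1*, and *Abca1* stand above the other 7 genes, and *Gpnmb* and *Marco* lie below the line at 0.47.

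An open region within 1 kb of an annotated transcription start was present at 8 of the 10 genes, compared with 57.1% of all protein-coding genes. The count was 7 within 500 bp (55.1% of all genes), 8 within 2500 bp (60.5%), and 7 with the outermost 5′ end only (53.5%). With regions of at least 200 bp, an open start remained at 2 of the 10 genes, against 34.8% of all protein-coding genes. *Abca1*, *Abcg1*, *Scarb1*, *Msr1*, *Lpl*, and *Cd9* had a region whose midpoint lay 14 to 154 bp from the outermost 5′ end of the gene. For *Trem2* the region lay in intron 1, with its midpoint 778 bp from the 5′ end. For *Cd36* it lay at an internal start. *Marco* and *Gpnmb* had no region within 1 kb of a start. Among their counted regions, the nearest edges were 37472 bp and 3045 bp from one. For *Marco*, a region outside the limit of 10 kb lay nearer, 12.7 kb upstream of the gene. Over all 72 regions, 57 (79.2%) were more than 1 kb from every start of a protein-coding or lncRNA gene. This was so for 70.6% of all regions and 62.2% of the 53189 regions within 10 kb of any protein-coding gene. By role, the share was highest at the efflux transporters, with 31 of 34 regions. It was 20 of 28 at the scavenger receptors, 2 of 3 at *Lpl*, and 4 of 7 at the lipid-associated macrophage genes. All of the 10 genes but *Trem2* were longer than the median protein-coding gene, 15.4 kb. Of the 15 regions within 1 kb of a start, 14 lay at a start of their own gene and 1, downstream of *Gpnmb*, at that of *2410003K15Rik*. By position in their own gene, 14 regions lay within 1 kb of a start, 44 in introns, 2 in exons, 4 upstream, and 8 downstream of the gene. The flanks reached other genes in few cases. For 7 regions the nearest start of a protein-coding gene belonged to a neighbor, namely *Tff3* for 5 regions of *Abcg1*, *Nipsnap3b* for 1 of *Abca1*, and *2410003K15Rik* for 1 of *Gpnmb*. Near the limit of 10 kb, the farthest region that was counted lay 9.34 kb upstream of *Trem2*, and the nearest that was not lay 10.2 kb upstream of *Cd36*.

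To describe the sequence of the regions, 13 short motifs were searched on both strands within each region. These were AP-1 (TGACTCA or TGAGTCA), PU.1 (GAGGAAGT), C/EBP (TTGCNNAA), MAF (TGCTGAC), the E-box (CACGTG), IRF (GAAA repeated after 2 bases), RBPJ (GTGGGAA), the sterol response element SRE (TCACNCCAC), HNF4 (CAAAGTCCA), NF-kB and the REV-ERB/ROR element (RORE) by name, and the direct repeats of AGGTCA after 1 base (DR1, bound by PPAR with RXR) and after 4 bases (DR4, bound by LXR with RXR). Up to 2 mismatches were allowed in DR1 and DR4 and none in the others. DR1, DR4, and the RORE share the letters GGTCA, so a single stretch can be counted under more than 1 of them. A match is a description of the sequence and does not show that a factor was bound. In the sequences below, capitals mark the motif matches, all are from mm9, and each is written 5′ to 3′ on the strand of its gene. They are the regions away from starts with the most different motifs of each gene, apart from the start of *Abca1* and a region near the start of *Scarb1*.

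*Cd36* encodes a receptor for long-chain fatty acids and oxidized LDL (ENSMUSG00000002944.8, chr5:17287508-17394777, minus strand, 107.3 kb). All 7 of its regions lay in intron 1 of the transcript with the longest coding sequence, an intron of 53 kb that makes up 49.4% of the gene, and none lay downstream of it. Their midpoints were 8.81, 12.07, 25.65, 31.46, 34.24, 39.12, and 49.17 kb from the outermost 5′ end. That 5′ end itself had no region, the nearest edge being 8735 bp away, and neither did the most internal start, at 3822 bp. The start between them, 39167 bp into the gene and used by 2 coding transcripts, lay inside the region chr5:17355569-17355740. The C/EBP motif was in 5 of the 7 *Cd36* regions, more than in any other of the 10 genes, against 10.4% of all regions. These 5 lay more than 1 kb from every start, where the share over all regions was 12%. The median GC content of the *Cd36* regions was 41.5%, against 52.7% of all regions, and whether base content affects the match was not tested. The region nearest to the 5′ end of the gene (chr5:17385892-17386042, 151 bp) carried C/EBP with AP-1 and MAF and is shown for that combination.

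*Cd36*, intron 1: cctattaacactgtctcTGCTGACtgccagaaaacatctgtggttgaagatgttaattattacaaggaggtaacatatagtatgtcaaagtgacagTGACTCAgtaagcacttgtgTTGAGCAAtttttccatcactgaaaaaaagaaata

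*Msr1* encodes the class A scavenger receptor (ENSMUSG00000025044.8, chr8:40667054-40728032, minus strand). Its 5 regions were all exactly 151 bp wide, which is also the commonest width in the list. They lay 9251 bp upstream, 113 bp upstream, and 22.63, 23.64, and 47.69 kb downstream of the 5′ end. The MAF motif was in 3 of the 5 regions, against 5.18% of all regions. The third region of *Msr1* (chr8:40705330-40705480) lay over exon 5 with 89 coding bases, and was 1 of 2 regions away from starts whose midpoint was exonic, the other being in *Abcg1*. It held a MAF motif and an E-box, the site of CLOCK:BMAL1 and of MITF/TFE factors.

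*Msr1*, exon 5: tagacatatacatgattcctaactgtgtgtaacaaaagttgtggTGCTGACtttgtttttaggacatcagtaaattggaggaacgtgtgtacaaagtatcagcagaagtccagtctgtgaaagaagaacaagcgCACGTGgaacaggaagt

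*Marco*, which encodes a receptor for bacteria and unopsonized particles and is used as a Kupffer cell marker (ENSMUSG00000026390.1, chr1:122371115-122401661, minus strand), had no open region in its 30.5 kb body. Its single region lay 37.55 kb from the 5′ end and beyond the 3′ end (chr1:122364039-122364189). PU.1 specifies the macrophage lineage, and its motif was the only one in this region.

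*Marco*, downstream: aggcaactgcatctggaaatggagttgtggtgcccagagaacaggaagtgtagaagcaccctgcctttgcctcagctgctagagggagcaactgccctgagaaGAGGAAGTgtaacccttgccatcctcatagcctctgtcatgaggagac

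*Scarb1* encodes the HDL receptor SR-BI, which takes up cholesteryl esters in the liver (ENSMUSG00000037936.9, chr5:125757457-125821464, minus strand, 64 kb). Of its 15 regions, 8 lay in intron 1, an intron of 36.4 kb that makes up 56.9% of the gene. The annotation gives it 10 starts, of which 6 had an open region within 1 kb. Of the 15 regions, 6 lay within 1 kb of one of these starts, and for 2 of them it was the start of a coding transcript. It also had the widest regions of all 72, of 344 bp in intron 1 (chr5:125810656-125810999) and of 317 bp downstream (chr5:125754187-125754503), both with midpoints more than 1 kb from every start. The region over the outermost start was 207 bp wide with 69.1% GC, the highest GC content among the 72. The only SRE among the 72 regions, the motif of the SREBPs, lay 1853 bp inside *Scarb1*, in intron 1 (chr5:125819607-125819615, TCACGCCAC), against 0.901% of all regions. Its region (chr5:125819546-125819743, 198 bp) lay 734 bp from an internal start of a coding transcript and is shown first, and a downstream region with an NF-kB motif (chr5:125751125-125751308) is shown after it. No *Scarb1* region held more than 1 of the 13 motifs.

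*Scarb1*, SRE region: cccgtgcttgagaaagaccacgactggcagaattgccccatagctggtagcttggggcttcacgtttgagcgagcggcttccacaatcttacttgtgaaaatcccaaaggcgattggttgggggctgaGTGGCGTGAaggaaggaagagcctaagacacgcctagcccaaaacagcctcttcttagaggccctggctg
*Scarb1*, downstream: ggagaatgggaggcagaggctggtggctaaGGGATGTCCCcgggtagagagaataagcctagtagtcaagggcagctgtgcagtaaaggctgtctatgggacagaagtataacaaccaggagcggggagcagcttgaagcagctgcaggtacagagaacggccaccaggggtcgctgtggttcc

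*Abca1*, which loads cholesterol and phospholipid onto lipid-poor apolipoprotein A-I (ENSMUSG00000015243.4, chr4:53043659-53172767, minus strand), had 20 regions, of which 2 lay at the start, 17 in introns, and 1 beyond the 3′ end. Intron 5, of 18.3 kb or 14.2% of the gene, held 7 regions, and intron 1, of 15.6 kb or 12.1%, held 6. After the last intronic region, in intron 18, no open region followed for 55.3 kb between midpoints, up to the downstream one, which was nearest to *Nipsnap3b*. The median width of its regions was 209 bp, against 160 bp over all regions, and 6 of the 20 had the commonest width of 151 bp. The region at the start (chr4:53172805-53173020, 216 bp, 64.4% GC) ended upstream of the annotated 5′ end and held an E-box at position -144 relative to it. The E-box was in 3 of all 72 regions (4.17%), against 6.08% of all regions in the list.

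*Abca1*, start: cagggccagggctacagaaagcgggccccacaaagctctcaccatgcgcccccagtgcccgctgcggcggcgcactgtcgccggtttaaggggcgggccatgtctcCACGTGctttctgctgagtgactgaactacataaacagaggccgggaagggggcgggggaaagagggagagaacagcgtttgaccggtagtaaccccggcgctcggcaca

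Introns 1, 15, and 17 of *Abca1* each had a region with a DR4 match at up to 2 mismatches. A repeat with more mismatches, at the start or elsewhere, was not counted. In intron 17 (chr4:53093173-53093463, 291 bp), matches to C/EBP, DR1, and DR4 lay together, and the C/EBP and DR1 matches shared a base. This was 1 of only 2 regions among the 72 with 3 different motifs, the other being that of *Cd36* shown above. Over the whole list, 1.44% of regions had 3.

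*Abca1*, intron 17: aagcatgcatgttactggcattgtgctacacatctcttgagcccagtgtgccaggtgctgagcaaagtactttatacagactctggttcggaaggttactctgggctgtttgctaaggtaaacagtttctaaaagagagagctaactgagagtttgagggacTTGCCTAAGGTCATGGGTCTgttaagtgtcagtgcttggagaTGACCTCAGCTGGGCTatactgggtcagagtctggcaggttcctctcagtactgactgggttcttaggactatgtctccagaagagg

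*Abcg1*, which exports cholesterol to mature HDL (ENSMUSG00000024030.6, chr17:31194643-31252722, plus strand, 58.1 kb), had 14 regions, of which 6 lay in intron 2, 2 in intron 1, and 3 in introns 5, 8, and 11. One region lay over exon 10 with 102 coding bases. Both annotated starts were within 1 kb of the region chr17:31194694-31194844, which had 68.2% GC. The next region, 1258 bp into the gene (chr17:31195786-31196017, 232 bp), was the widest of *Abcg1* and held a MAF and a DR4 match. In intron 2, 18017 bp into the gene, a RORE (chr17:31212655-31212665, AATGTAGGTCA) overlapped a DR4 match with 1 mismatch (chr17:31212650-31212665, AGGTTAATGTAGGTCA). This was the only RORE among the 72 regions, and 0.407% of all regions held one. It was also the only DR4 match of the 72 regions with fewer than 2 mismatches.

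*Abcg1*, intron 1: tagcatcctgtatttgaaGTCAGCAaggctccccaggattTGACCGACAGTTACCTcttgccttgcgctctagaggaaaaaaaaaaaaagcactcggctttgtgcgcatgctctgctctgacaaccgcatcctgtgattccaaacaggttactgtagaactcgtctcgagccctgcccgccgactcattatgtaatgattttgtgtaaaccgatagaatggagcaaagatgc

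DR4 matches were in 6 of the 72 regions (8.33%), against 3.59% of all regions, and they lay in *Abca1* (3 regions), *Abcg1* (2), and *Scarb1* (1). The efflux transporters thus held 5 of the 6 in their 34 regions (14.7%). DR1 matches were in 5 of 72 (6.94%), against 5.61% of all regions, with 2 regions each in *Abca1* and *Abcg1* and 1 in *Lpl*. When only 1 mismatch was allowed, DR4 remained in 1 region (1.39%), against 0.45% of all regions, and DR1 in 1 (1.39%), against 1.08%, so most of these matches are loose.

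*Lpl* encodes the lipase that releases fatty acids from triglyceride-rich lipoproteins (ENSMUSG00000015568.8, chr8:71404390-71431347, plus strand, 27 kb). It had 3 regions, none of them in an intron. One lay 2198 bp upstream with a DR1 match, one lay over the cluster of starts at the 5′ end (chr8:71404452-71404636) with no motif, and one lay downstream of the 3′ end with an AP-1 motif (chr8:71432745-71432939).

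*Lpl*, downstream: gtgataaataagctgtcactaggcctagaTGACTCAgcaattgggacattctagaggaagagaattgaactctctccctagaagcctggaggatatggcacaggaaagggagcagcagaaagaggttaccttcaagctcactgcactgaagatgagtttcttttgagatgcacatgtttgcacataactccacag

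The 3 genes of lipid-associated macrophages had 7 regions. *Trem2*, a lipid-sensing receptor (ENSMUSG00000023992.8, chr17:48485726-48493472, plus strand), is with 7.75 kb the shortest of the 10 genes, and had 1 region in intron 1 and 1 region 9338 bp upstream, both without any of the 13 motifs. *Gpnmb*, a transmembrane glycoprotein of lysosomes and the cell surface (ENSMUSG00000029816.7, chr6:48986517-49020928, plus strand), had 1 region in intron 1, 3279 bp from the 5′ end (chr6:48989721-48989871), with an AP-1 motif. Its other region, downstream, lay at the start of *2410003K15Rik* and had 65.3% GC. *Cd9*, a tetraspanin (ENSMUSG00000030342.8, chr6:125410284-125444809, minus strand), had a region over its 5′ end (chr6:125444720-125444870), which also lay in the lincRNA gene *Gm16749*, and 2 regions in intron 1 whose midpoints were 323 bp apart. These intronic regions were 282 and 212 bp wide, and the narrower (chr6:125431838-125432049) held a C/EBP motif.

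*Gpnmb*, intron 1: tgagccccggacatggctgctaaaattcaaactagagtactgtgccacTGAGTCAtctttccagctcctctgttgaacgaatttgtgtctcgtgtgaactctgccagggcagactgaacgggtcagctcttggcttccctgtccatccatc
*Cd9*, intron 1: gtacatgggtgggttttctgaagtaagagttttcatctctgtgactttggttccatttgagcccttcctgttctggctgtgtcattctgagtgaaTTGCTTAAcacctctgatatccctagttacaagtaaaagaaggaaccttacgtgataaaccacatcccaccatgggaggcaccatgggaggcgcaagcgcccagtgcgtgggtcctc

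The 72 regions had a median width of 163.5 bp (range 151 to 344 bp), close to 160 bp over all regions. Of them, 34 (47.2%) were 151 bp wide, against 46.5% of all regions. This was also the smallest width among the 53189 regions within 10 kb of any protein-coding gene, 44.9% of which had it. At least 200 bp were reached by 22 regions (30.6%), against 30.7% of all regions. Within 1 kb of a start it was 4 of 15 (26.7%), against 41.8% of all such regions. More than 1 kb from every start it was 18 of 57 (31.6%), against 26.1%. Widths differed between the genes, as the plot of widths shows. All regions of *Msr1* and *Marco* and 9 of 14 of *Abcg1* were 151 bp, whereas the medians were 209 bp for *Abca1* and 212 bp for *Cd9*. The median GC content was 51.7%, against 52.7% of all regions, and ran from 34.4% at the start of *Msr1* to 69.1% at the start of *Scarb1*. By gene, the median GC content was lowest in *Cd36*, at 41.5%. No CpG at all was present in 12 of the 72 regions (16.7%), against 9.79% of all regions. More than 1 kb from every start the share was 15.8%, against 13% of all such regions. Within 1 kb of a start it was 3 of 15 (20%), against 2.02%. These 3 regions lay at the 5′ end of *Msr1*, at the internal start of *Cd36*, and in intron 9 of *Scarb1*. The *Scarb1* region was near a start without a coding transcript.

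**Figure D3:**
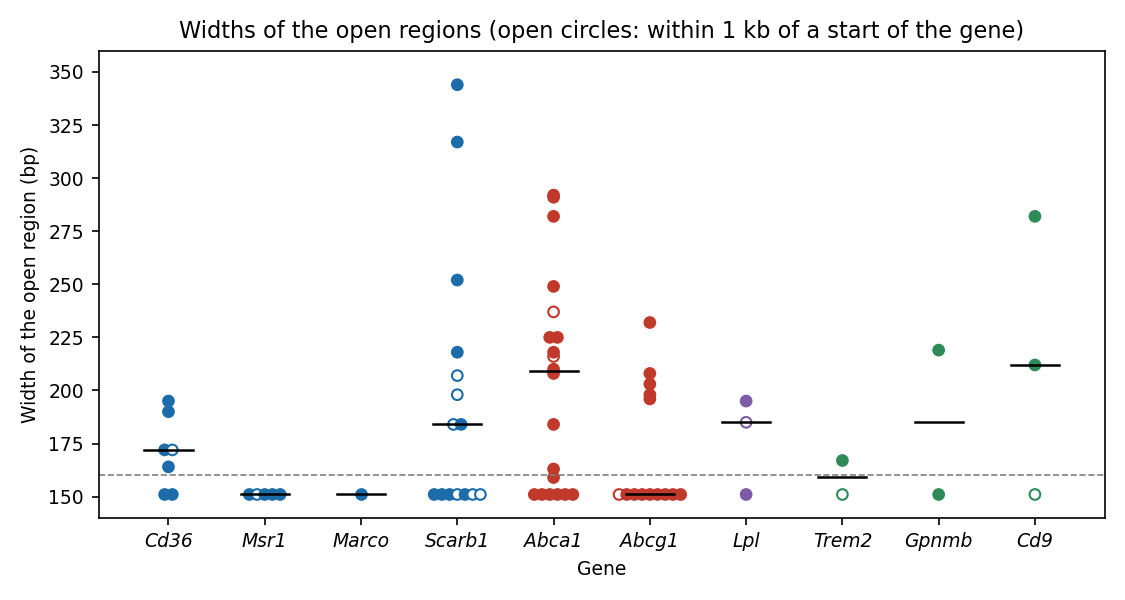
Width in bp of each open region by gene, with open circles for regions within 1 kb of a start of the gene, filled circles for the others, black bars for the medians, and a dashed line for the median of all regions (160 bp). The axis does not start at 0, and 34 of the 72 regions sit at 151 bp, the smallest width.

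At least 1 of the 13 motifs was in 38 of the 72 regions (52.8%), against 42.8% of all regions. C/EBP was the most frequent, in 12 regions (16.7%) against 10.4%, and MAF followed with 8 (11.1%) against 5.18%. Both rested on few genes. Without *Cd36*, C/EBP was in 7 of 65 regions (10.8%), close to its share of all regions. Without *Cd36* and *Msr1*, MAF was in 3 of 60 (5%). For DR4 the share was 5.77% without *Abca1*, and *Abca1* and *Abcg1* together held 5 of the 6 regions. Among the scavenger receptor genes, DR4 was in 1 of 28 regions. PU.1 was in 5 regions (6.94%) against 3.82%, each in a different gene, and all were more than 1 kb from any start. Within 250 bp on either side of the midpoint the PU.1 share was again 6.94%, but 6.74% of all regions then held the motif. AP-1 was also in 5 regions of 5 genes (6.94%), against 6.56% of all regions, and NF-kB was in 5 (6.94%) against 5.23%. IRF was found in 1 region (1.39%, against 2.29%), RBPJ in 1 (1.39%, against 3.9%), and HNF4 in 0 (against 0.96%). With 72 regions from 10 genes, the 95% Wilson intervals are wide. They span 9.80% to 26.9% for C/EBP, 5.74% to 20.4% for MAF, 3.88% to 17.0% for DR4, and 3% to 15.2% for PU.1, and they treat regions of the same gene as independent, which they are not.

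**Figure D4:**
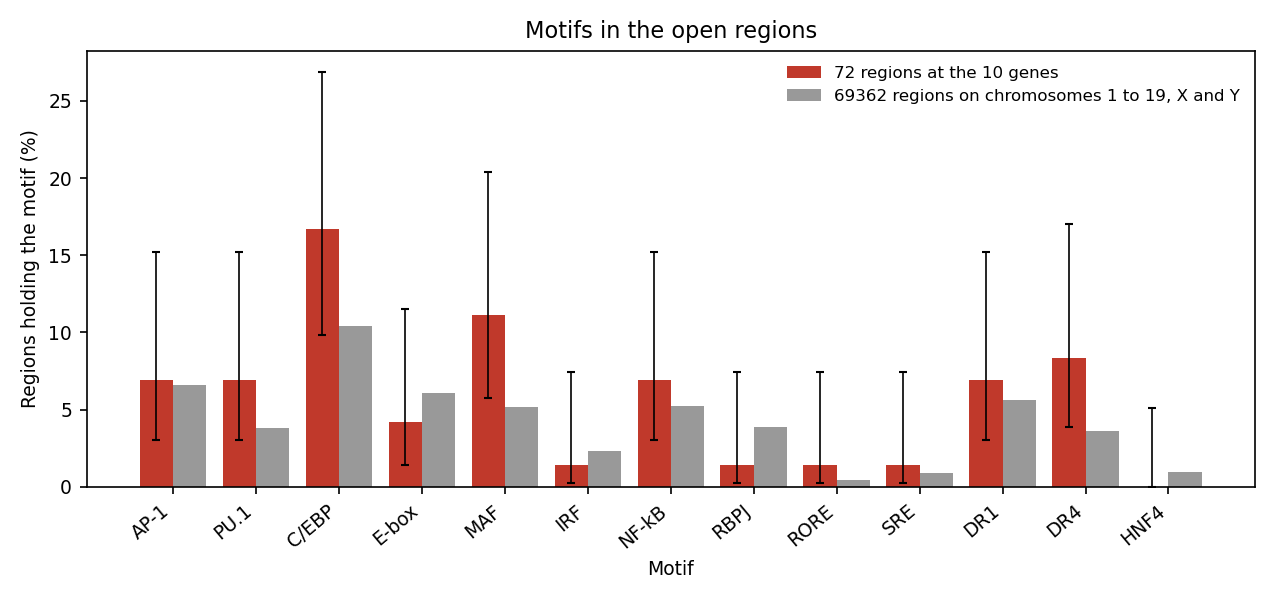
Percentage of the 72 regions (red, with 95% Wilson intervals that cover counting error only) and of all regions on chromosomes 1 to 19, X, and Y (grey) that hold each motif. C/EBP, at 16.7%, and MAF, at 11.1%, are the most frequent in the 72 regions. The interval includes the value of all regions for each motif except MAF and DR4, but it treats regions of the same gene as independent. MAF was in 3 of 60 regions without *Cd36* and *Msr1*, and 5 of the 6 regions with DR4 lay in *Abca1* and *Abcg1*.

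Other genes of the same pathways were described in the same way, and 57.1% of all protein-coding genes had an open start. Among 12 other lipid uptake receptors, 10 had an open start, and the median density was 1.26 regions per 10 kb. *Cd68* was the densest of them at 3.19, while *Olr1*, the lectin-like oxidized LDL receptor, had 0 regions and *Cd163* had 1 and no open start. Among 10 genes of intracellular lipid handling, 9 had an open start and the median was 1.52, with *Pnpla2*, which encodes adipose triglyceride lipase, at 3.52 and *Fabp4* without any region. All 10 efflux partners and nuclear receptors had an open start, with a median of 2.12. Within this list *Apoc2*, which encodes a cofactor of lipoprotein lipase, was highest at 3.69 and *Pparg* lowest at 0.60. Of 10 other genes of lipid-associated macrophages, 8 had an open start and the median was 1.33, with *Tyrobp*, the signaling adaptor of TREM2, at 2.52 and *Itgax* at 0.24. *Spp1* and *Itgax* had no open start. The overall median of 0.47 was exceeded by 8 of 12, 9 of 10, 10 of 10, and 8 of 10 genes of these lists, and *Fabp5*, *Plin2*, and *Lipa* stand in 2 of them. The medians of all 4 lists were higher than that of the 10 genes, 0.63. Short genes collect regions of their neighbors within 10 kb, so the densities of short genes such as *Pnpla2* and *Tyrobp* can include regions at other genes.

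**Figure D5:**
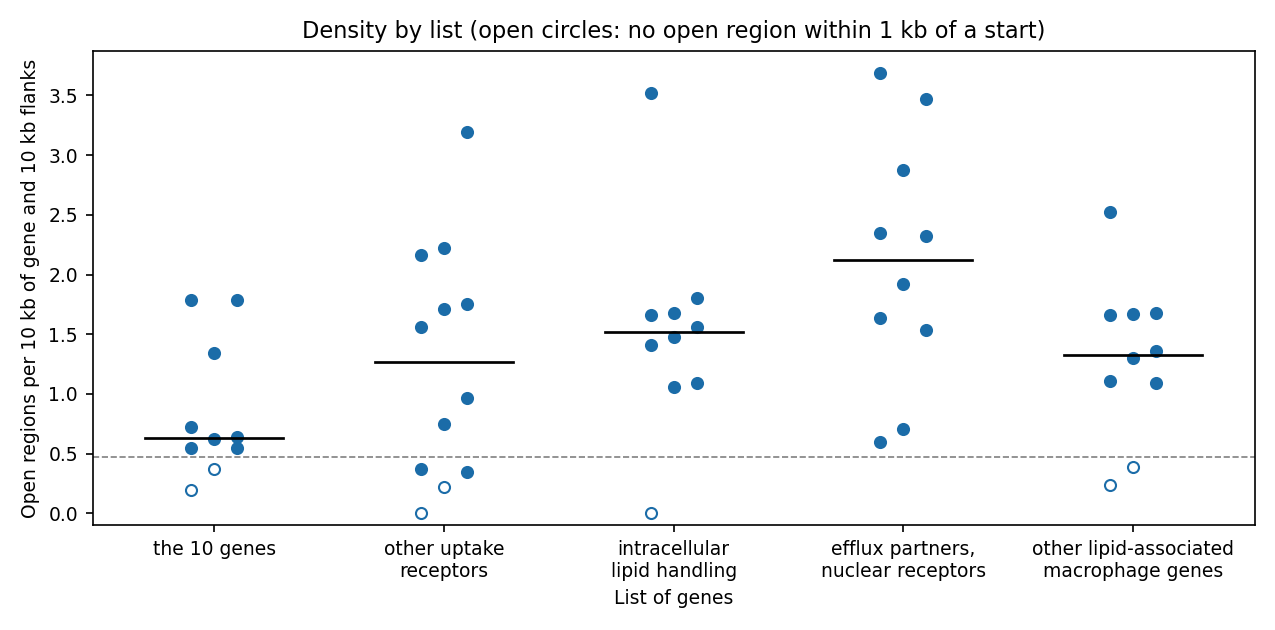
Open regions per 10 kb of gene and flanks for each gene of the 5 lists, with black bars for the medians, a dashed line for the median of all protein-coding genes (0.47), and open circles for genes without an open region within 1 kb of a start. The median runs from 0.63 for the 10 genes to 2.12 for efflux partners and nuclear receptors, and *Marco* and *Gpnmb* are the open circles of the first list.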

How the data were processed

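Accessible DNA of 18 fast-ATAC-Seq libraries was the measurement. After adapter trimming, the authors mapped reads with Bowtie (genome mm9), merged alignments of biological replicates, and called peaks. The deposited list joins these into 69499 regions with coordinates only. The peak caller and its threshold are not given in the sources used here. Starts, counted from 0 in the file, are given from 1.

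Regions were placed on the NCBIM37 genome, the assembly of mm9, and GENCODE vM1, and 0 regions ran past a chromosome end. Introns and exons were numbered in the transcript with the longest coding sequence. *Adgre1* was matched by its synonym *Emr1*. For each gene, the text gives the region nearest to the start, places, and sequences away from starts chosen by number of different motifs (at most 300 bp, no UTR bases, then the wider), beside 2 of the regions at starts, chosen after their motifs were seen. Of the pathway lists it names the highest and lowest density and genes without an open start. Members, lists, motifs, and alternatives were chosen with earlier results of these data known. Placing of windows (200 of 200 right) and motif search (2600 of 2600 planted sites found) were tested on simulated data. Scripts ran in Python 3.11.15 with NumPy 2.4.6 for counts and medians, SciPy 1.17.1 for Wilson intervals, which cover counting error only, and matplotlib 3.10.9 for plots.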

Additional observations from a re-analysis of the deposited data

How the results depend on the processing

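No paired analysis was possible because libraries were pooled before deposit. The number of regions at the 10 genes was 57 to 92 when the gene body alone, 5 kb, or 25 kb was used, 66 with regions at most 500 bp apart joined, and 65 when the nearest coding start had to be that of the gene. It was 22 with regions at least 200 bp wide, since narrower regions were left out. With that width, 2 of the 10 genes had an open start (34.8% of all protein-coding genes), and the median density was 0.09 regions per 10 kb, against 0.10 over all protein-coding genes. An open start was found for 7 genes within 500 bp (without *Trem2*), against 55.1% of all, and for 7 with the outermost 5′ end only (without *Cd36*), against 53.5% of all. Leaving out each gene in turn gave a median density of 0.62 to 0.64. With the gene body alone the median density was 0.76, against 0.14 over all protein-coding genes. The share of regions away from starts was 72.2% to 81.8%. The AP-1 share was 6.94% in the regions as listed, against 6.56% of all regions. Within 250 bp on either side of the midpoint, a longer stretch, it was 18.1% against 12.4%. The PU.1 share was 6.94% to 8.77%, but within 250 bp it was 6.94% against 6.74% of all regions, so the difference from all regions was nearly gone. *Abca1*, *Scarb1*, and *Abcg1* had the most regions in each of the 3 settings tried for single genes. Without regions nearest to *Tff3*, *Abcg1* had 9 regions, and within 25 kb *Marco* had 4. The limit of 1 mismatch in DR1 and DR4 (1.39% of regions for each) was added after the data were seen, as was leaving out the regions of each gene, by which the C/EBP share was 10.8% to 19.3%, MAF 7.46% to 13.5% (5% without *Cd36* and *Msr1*), PU.1 5.63% to 8.77%, and DR4 5.77% to 9.23%. Without read counts, regions cannot be ranked by strength.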
